A study of Mus musculus with 7 samples.

Results

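Acute phase proteins are secreted defence and transport proteins whose synthesis rises in inflammation, and complement is a cascade of plasma proteins that tags and lyses targets. The 9 genes C3, Cfb, C4b, Saa3, Ptx3, Hp, Lbp, Serpina3n and Serping1 were followed here across 7 arrays of mouse prostate tumours. They were taken by gene symbol from the platform annotation, and 8 of them had probes there, 14 probes in all among the 45128 on the array. C3, the central complement component, had no probe listed under its symbol and was not analysed here. All 14 probes, and so all 8 genes, passed the filter on dim probes (detected on at least 3 arrays), which left 11085 genes for the fit. The genes were chosen with results of RAPPD against vehicle known, so their differences are given below as a description.

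Total RNA came from allografted NPK prostate tumours. The hosts were athymic nude NU/J mice, dosed each day for 5 days with vehicle (3 tumours) or RAPPD (4 tumours), and tumours were taken on the last of these days. NPK is a mouse model of prostate cancer, and the tumours of both groups are of this model. The labels do not spell out RAPPD, which in the published work on the model is rapamycin, an mTOR inhibitor, combined with a MEK inhibitor. Ages, and whether tumours came from separate donors, are not given in the labels. The hosts lack a functional thymus and so most T cells, while complement and myeloid cells remain.

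The liver makes most circulating acute phase and complement proteins, and epithelial cells, macrophages and fibroblasts also make them locally. Interleukin-6 family cytokines acting through STAT3 and C/EBP factors, and interleukin-1 acting through NF-kB, are the classical inducers. Complement starts by the classical, lectin or alternative pathway, and all of them meet at the cleavage of C3.

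Each array detected between 20323 and 21330 probes. The array positions in the labels put vehicle 3 and all 4 RAPPD arrays on the same chip, and vehicle 1 and vehicle 2 on chips of their own. Vehicle 2 held skeletal muscle RNA, with a summed muscle marker intensity of 40420 against at most 119 on the other 6 arrays. Of 4 prostate identity markers with a probe (Pbsn, Tmprss2, Hoxb13 and Msmb), 0 were detected on any array. Of 6 luminal epithelial markers with a probe, the keratins Krt8, Krt18 and Krt19 were detected on every array. Cdh1 was detected on 2 vehicle and 2 RAPPD arrays, and Epcam and Cldn4 were detected on no array. Levels are normalised log2 intensities unless intensity is stated, and the level at which a probe counted as detected was 4.92 to 5.01 on this scale. Levels of different probes cannot be compared with each other.

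Promoter sequence from RefSeq (GRCm38.p6) was at hand for 4 of the 9 genes, and the 3 of them with array values are shown because their transcripts were higher together in RAPPD tumours. Each line holds the 250 bases before the annotated start, 5′ to 3′ on the strand of the gene. Capitals mark matches to a C/EBP motif (TTNNGNAA) or an NF-kB motif (GGG and CC with any 5 bases between them) on either strand.
Saa3, chr7:46715677-46715926, minus strand: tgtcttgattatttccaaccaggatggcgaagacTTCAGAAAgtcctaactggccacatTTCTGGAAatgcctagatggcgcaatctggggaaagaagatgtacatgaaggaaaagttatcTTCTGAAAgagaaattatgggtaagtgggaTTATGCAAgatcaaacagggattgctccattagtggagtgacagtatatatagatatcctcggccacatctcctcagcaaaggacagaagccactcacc
Ptx3, chr3:66219637-66219886, plus strand: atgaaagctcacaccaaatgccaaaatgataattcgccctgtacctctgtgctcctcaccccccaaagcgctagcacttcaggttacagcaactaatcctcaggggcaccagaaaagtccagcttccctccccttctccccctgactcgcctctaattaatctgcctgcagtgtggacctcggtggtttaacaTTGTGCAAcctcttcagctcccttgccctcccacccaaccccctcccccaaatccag
Serpina3n, chr12:104406458-104406707, plus strand: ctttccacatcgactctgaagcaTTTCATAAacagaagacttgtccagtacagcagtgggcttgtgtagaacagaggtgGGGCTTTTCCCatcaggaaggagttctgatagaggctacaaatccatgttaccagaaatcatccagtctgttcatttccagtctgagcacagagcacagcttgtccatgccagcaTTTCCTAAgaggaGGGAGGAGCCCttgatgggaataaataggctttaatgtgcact

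All 3 windows held a C/EBP match. Saa3 had 4 of them, the nearest beginning 99 bases before the start. The match in Ptx3 begins 57 bases before the start, and those in Serpina3n begin 56 and 227 bases before it, on the opposite strand. Serpina3n alone of the 3 held the NF-kB motif, at 2 places where matches on both strands overlap. A STAT motif (TTCNNNGAA) and the TATA letters TATAAA had no match in these windows. Across 32851 promoters of the same length the C/EBP motif had a match in 36.8%, the NF-kB motif in 45.8%, the STAT motif in 7.02% and TATAAA in 7.59%, so a match is common and describes letters alone.

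In the fit across all genes 7 of the 8 measured members were called higher in RAPPD tumours and 0 lower (limma, also 0 lower at an unadjusted p under 0.05), where 11.0% of all genes were called higher and 13.1% lower. The groups did not overlap for the same 7, as for 15.8% of all genes (counting those higher in RAPPD). The exception was C4b. Since the genes were picked from this contrast, nothing is read from these shares. In these bulk samples, more cells that make a transcript and more RNA per cell cannot be told apart.

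**Figure D1:**
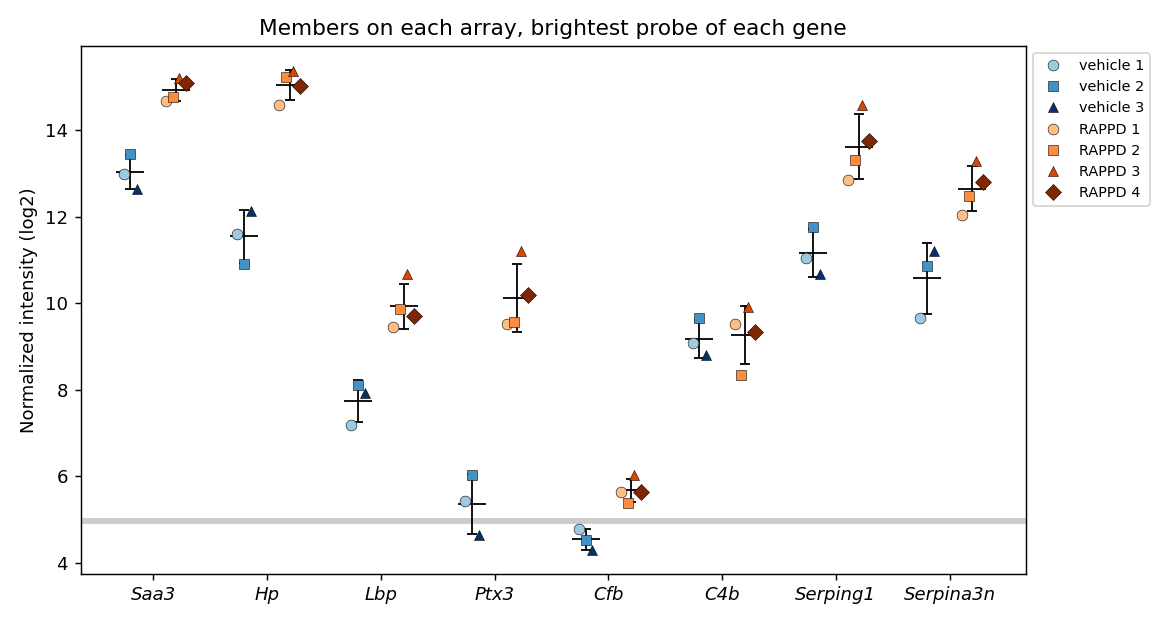
Normalised log2 intensity (vertical axis) of the brightest probe of each of the 8 measured genes on the 3 vehicle arrays (blue) and the 4 RAPPD arrays (orange), with group means and SD as bars and the detection limits as a grey band. The groups separate for every gene but C4b, and Cfb lies below the band on all vehicle arrays.

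The acute phase transcripts Saa3, Hp and Lbp were detected on every vehicle array and were higher in RAPPD tumours. Saa3, an inducible serum amyloid A made mainly outside the liver, stood at 12.99, 13.44 and 12.65 on vehicle 1 to 3 and at 14.68, 14.77, 15.21 and 15.08 on RAPPD 1 to 4. Every RAPPD array lay above every vehicle array, and the RAPPD arrays were close together. The difference was 1.91 ± 0.23 (log2, SE, n = 4 and 3), or 3.75-fold. Its intensity ran from 25525 to 37437 on the RAPPD arrays, where the brightest probe of any array had 57381 to 78609.

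Haptoglobin (Hp), which binds free haemoglobin, stood at 11.61, 10.91 and 12.13 on the vehicle arrays and at 14.58, 15.22, 15.37 and 15.03 on the RAPPD arrays. The lowest RAPPD array was over 2 log2 units above the highest vehicle array. The difference was 3.50 ± 0.30, or 11.3-fold. Its other probes, which were less bright, differed by 4.30 ± 0.38 and 4.19 ± 0.32, or 19.6-fold and 18.2-fold. All probes of the gene separated the groups, with the smallest difference on the brightest one.

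Lbp, which hands bacterial lipopolysaccharide to the receptor CD14, stood at 7.19, 8.10 and 7.93 on the vehicle arrays and at 9.46, 9.87, 10.68 and 9.71 on the RAPPD arrays. No vehicle array reached the lowest RAPPD array. The difference was 2.19 ± 0.32, or 4.56-fold, from the gene's single probe.

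The long pentraxin Ptx3 is a secreted pattern recognition protein that binds microbes and complement C1q. It stood at 5.43, 6.04 and 4.65 on the vehicle arrays and at 9.53, 9.56, 11.21 and 10.19 on the RAPPD arrays. Vehicle 3 was below detection and the other vehicle arrays just above it, so the floor limits the size of the difference, which was 4.75 ± 0.46, or 26.9-fold. Its other probe was below detection on all vehicle arrays and was at least 21.4-fold higher in RAPPD tumours.

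Complement itself was split. Factor B (Cfb), the protease of the alternative pathway convertase, stood at 4.78, 4.54 and 4.31 on the vehicle arrays and at 5.63, 5.40, 6.03 and 5.65 on the RAPPD arrays. It was detected on 0 of the 3 vehicle arrays and all 4 RAPPD arrays, and was at least 1.63-fold higher in RAPPD tumours. Because it passed the filter through the RAPPD arrays alone, its groups could hardly have been alike. The highest RAPPD intensity was 50.1, so factor B transcripts were near the detection limit in RAPPD tumours too.

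C4b, the C4 component that joins the classical and lectin pathway convertase, stood at 9.08, 9.66 and 8.80 on the vehicle arrays and at 9.52, 8.34, 9.91 and 9.33 on the RAPPD arrays. The groups overlapped throughout, and RAPPD 2 held the lowest value of all 7 arrays. The difference was 0.10 ± 0.36 and was not called. Its other probes were dim, with intensities of at most 58.5, and differed by 0.42 ± 0.26 and -0.12 ± 0.40. C4b and its near-identical neighbour C4a may share signal, so both are uncertain. The brightest C4a probe lay at 0.90 ± 0.40, also not called (limma adjusted p = 0.139), and another C4a probe at 0.60.

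The protease inhibitors were higher in RAPPD tumours. Serping1, the C1 inhibitor that blocks the first proteases of the classical and lectin pathways, stood at 11.05, 11.77 and 10.67 on the vehicle arrays and at 12.84, 13.30, 14.59 and 13.74 on the RAPPD arrays. The groups were apart, and RAPPD 3 was the highest. The difference was 2.46 ± 0.41, or 5.49-fold, and its second probe gave 2.59 ± 0.39, or 6.02-fold.

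Serpina3n, a secreted inhibitor of neutrophil proteases and other serine proteases, stood at 9.65, 10.87 and 11.21 on the vehicle arrays and at 12.05, 12.47, 13.29 and 12.79 on the RAPPD arrays. Its vehicle arrays spread over 1.56 log2 units, the widest among the probes used for the 8 genes, and vehicle 3 came nearest to the RAPPD arrays. The difference was 2.07 ± 0.40, or 4.21-fold. It sits in a cluster of related Serpina3 genes whose transcripts its single probe may also bind.

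**Figure D2:**
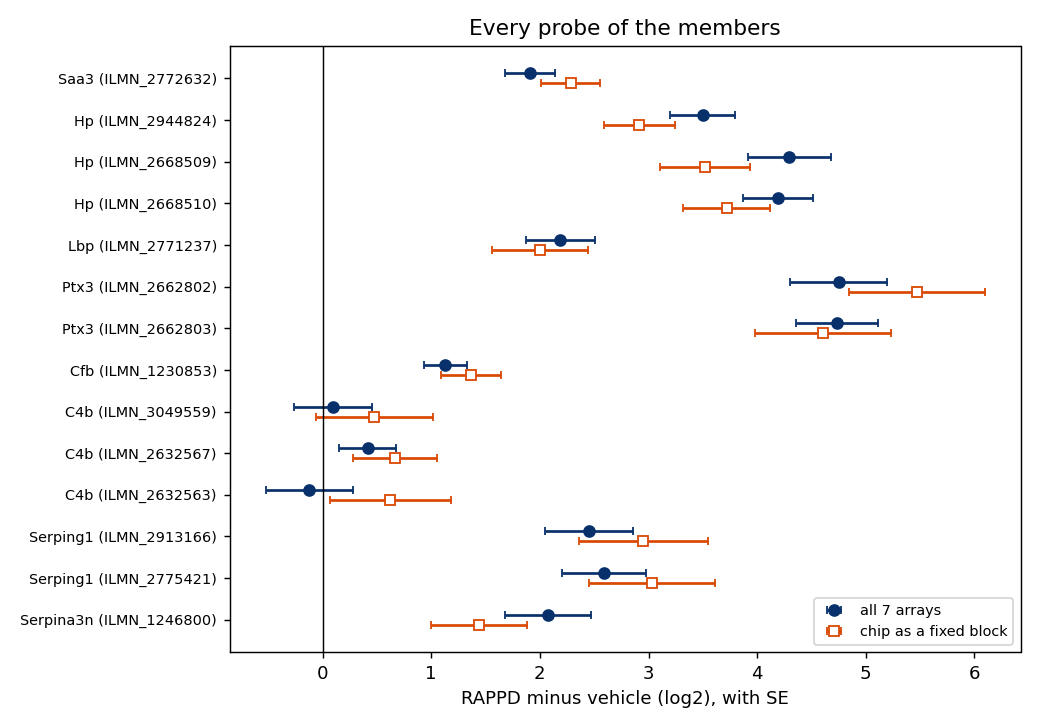
Difference of RAPPD minus vehicle in log2 units (horizontal axis, bars are SE) for each of the 14 probes, over all 7 arrays (filled circles) and with chip as a fixed block (open squares). The probes of Hp, Ptx3 and Serping1 lie on the same side of 0 as each other in both fits, while those of C4b lie near 0 over all arrays.

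Chip could not be separated from vehicle 1 and 2, so the difference was also fitted with chip as a fixed block. That leaves a comparison of vehicle 3 alone with the RAPPD arrays beside it, with a spread taken from the 4 RAPPD arrays alone, so vehicle 3 is assumed to vary as they do. Calls of this fit, here and below, thus rest on a single vehicle array. Of the 8 genes 6 were called higher in it, against 3.42% of all genes (5.94% lower), and nothing is read from this share. Saa3 was then at 2.28, Ptx3 at 5.47, Serping1 at 2.95 and Cfb at 1.37, each larger than over all arrays. Hp was at 2.92, Lbp at 2.0 and Serpina3n at 1.44, each smaller, and the call of Serpina3n was lost (limma). The submitters' processed values gave 2.02 for Ptx3, 1.30 for Lbp and 0.14 for Cfb, whose call was lost there. With every probe tested for itself, 11 of the 14 were called higher over all arrays, where 10.9% of all probes were, and the 3 not called were those of C4b. The Cfb probe and the dimmer Ptx3 probe passed the filter through the RAPPD arrays alone, and nothing is read from this share either.

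The members did not follow one order over the arrays. Among RAPPD tumours, RAPPD 3 was the highest for all 7 called genes and RAPPD 1 the lowest for 6 of them, with RAPPD 2 lowest for Cfb. Among vehicle tumours the members parted. Vehicle 3 was the lowest for Saa3, Ptx3, Cfb and Serping1 and the highest for Hp and Serpina3n. For Cfb and Ptx3 the vehicle levels lay below or near the detection limit, so nothing is read from their order. The other probe of Ptx3, below detection on all vehicle arrays, had vehicle 3 as its highest, at 4.78. The vehicle tumour with the least Saa3 and Serping1 transcript thus had the most Hp transcript.

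Measured by the root mean square distance between profiles over the 7 arrays, each set to its own mean, the gene nearest to Serping1 outside the members was the collagen cross-linking enzyme Lox, at 0.119. Lox stood at 9.67, 10.65 and 9.61 on the vehicle arrays and at 11.62, 12.12, 13.57 and 12.72 on the RAPPD arrays. Galnt17 at 0.218 and Cyp1b1 at 0.270 came next. Nearest to Saa3 were Wfdc17 at 0.189, the TNF receptor family member Tnfrsf9 at 0.217 and Gpr146 at 0.219. Among the members, Lbp was nearest to both Saa3 (0.403) and Serping1 (0.411). C3 was to be compared in the same way and had no probe.

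The rest of the complement system was measured with a list of 48 genes, of which 44 had a probe and 23 passed the filter. In RAPPD tumours 5 were higher and 0 lower (limma), where 11.0% of all genes were called higher and 13.1% lower. At an unadjusted p under 0.05, 5 were higher and 2 lower, as were 17.6% and 19.9% of all genes, and these shares hold for the lists below too. The median difference was 0.25 against -0.014 for all genes. C2, the protease of the classical and lectin convertase and the direct neighbour of Cfb in the genome, rose by 3.18 ± 0.44 (limma adjusted p = 0.00151). It stood at 8.47, 8.48 and 8.83 on the vehicle arrays and at 10.75, 11.52, 12.95 and 11.87 on the RAPPD arrays, and the groups were far apart. C4b, with 6 protein-coding genes between it and C2 in the RefSeq assembly GRCm38.p6, was the member that was not called.

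The C1s proteases, which Serping1 inhibits, were also higher. C1s2 was not detected on any vehicle array and was at least 3.84-fold higher, with its other probe at a log2 difference of 0.54. Like Cfb it passed the filter through the RAPPD arrays alone, so its call, 1 of the 5, supports nothing. C1s1 rose by 2.04 ± 0.47 (limma adjusted p = 0.0154), and the near-identical pair cannot be told apart with certainty. The C1r-like protease C1rl rose by 1.10 ± 0.31 (limma adjusted p = 0.0312), although its groups overlapped. Masp1, a protease of the lectin pathway, rose by 1.24 ± 0.39 (limma adjusted p = 0.0477), from a group mean of 12.67 to 13.91, with its other probes at -0.15 to 1.58.

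The recognition subunits of the classical pathway, which macrophages make, did not pass the test. C1qa lay at 0.08 ± 0.24, C1qb at 0.25 ± 0.23 and C1qc at 0.07 ± 0.21, with limma adjusted p from 0.471 to 0.845. Properdin (Cfp), which stabilises the alternative pathway convertase, was at -0.36 ± 0.29 (limma adjusted p = 0.394), and Cd55, which takes convertases apart, was at -0.52 ± 0.22 (limma adjusted p = 0.127). The anaphylatoxin receptor genes C3ar1 and C5ar1 and the mannose-binding lectins Mbl1 and Mbl2 were among the 21 genes below the filter. Without vehicle 2, RAPPD 3 or RAPPD 4 the number called higher was 3, and only Masp1 (at 2.36) was called in the fit with chip as a block, a count of 1. In that fit C2 was still at 2.94 (limma adjusted p = 0.062).

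Of 48 other acute phase and partner genes, 42 had a probe and 21 passed the filter. In RAPPD tumours 11 were higher and 0 lower (limma, with 14 and 1 at an unadjusted p under 0.05; all genes 11.0% and 13.1%), with a median of 1.07 against -0.014 for all genes. Saa1, the serum amyloid A of the systemic response, rose by 3.66 ± 0.52 (limma adjusted p = 0.00175). It stood at 5.87, 5.76 and 7.73 on the vehicle arrays and at 9.60, 10.75, 9.51 and 10.58 on the RAPPD arrays, with vehicle 3 above the other vehicle arrays. A dimmer probe of Saa1 lay at -0.04, and Saa1 and Saa2 are near-identical. Saa2 was at 1.08 ± 0.27 and also called, and Saa4, the nearest neighbour of Saa3, was not (limma adjusted p = 0.0503).

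Orm1, an acid glycoprotein that carries drugs and lipids in plasma, rose by 3.65 ± 0.57 (limma adjusted p = 0.00278). Haem oxygenase 1 (Hmox1), which degrades haem, rose by 2.33 ± 0.34 (limma adjusted p = 0.00202). Ambp, the precursor of a haem-binding protein, rose by 2.01 ± 0.39 (limma adjusted p = 0.00691). Other partners of Hp did not pass the test. The haptoglobin-haemoglobin receptor Cd163 lay at -0.73 ± 0.34 (limma adjusted p = 0.151) and the haem carrier Hpx at -0.75 ± 0.30 (limma adjusted p = 0.0996), with the other probe of Hpx at -0.0061.

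The lipopolysaccharide receptor Cd14, to which Lbp delivers its ligand, rose by 1.88 ± 0.29 (limma adjusted p = 0.00284), and Tlr4, which signals with it, rose by 0.63 ± 0.18 (limma adjusted p = 0.0322). The receptor's other subunit Ly96 was at 0.43 ± 0.24 and was not called (limma adjusted p = 0.237). The lipid transfer protein Pltp, a relative of Lbp, rose by 1.51 ± 0.29 (limma adjusted p = 0.0065). Among the Serpina3 relatives of Serpina3n, Serpina3f was at 1.99 ± 0.55 and called (limma adjusted p = 0.0302), while Serpina3i and Serpina3j were at 0.11 and -0.20 and not called. With chip as a fixed block 3 of these 21 genes were called (Hmox1, Saa1 and Saa2), with Hmox1 at 3.19 and Saa1 at 2.38.

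Transcripts of many liver proteins were not detected. The acute phase genes Crp, Apcs, Fgb and Ahsg were detected on no array, and neither were the hepatocyte genes Ttr, Apoa1 and Apob. Other genes of the acute phase list were detected, as Fgg, Serpina1a and Hpx passed the filter without a call. Fga was detected on 2 arrays and was below the filter. Of 14 hepatocyte markers with a probe, 9 were never detected by their brightest probe and 1, transferrin (Trf), was detected on every array. The summed hepatocyte marker intensity was 590.4 to 2844 on vehicle and 2401 to 4261 on RAPPD arrays. Trf alone made 78.7% to 98.9% of it, and without Trf the sums were 42.7 to 205.4 and 33.9 to 111.1. Trf was called higher, by 1.64 ± 0.51 (limma adjusted p = 0.0464), with overlapping groups, and the other 2 hepatocyte markers past the filter, Cyp2e1 and Hnf4a, were not called. Albumin (Alb) was detected on 1 of 7 arrays, with an intensity of at most 16.2.

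The signalling that induces these genes was measured with a list of 31 cytokines, receptors and factors, of which 27 passed the filter. The list and its counts include the inhibitors Socs3 and Nfkbia. In RAPPD tumours 16 were higher and 0 lower (limma, with 17 and 0 at an unadjusted p under 0.05; all genes 11.0% and 13.1%), with a median of 0.93 against -0.014 for all genes. Socs3, the feedback inhibitor induced by STAT3, rose by 3.11 ± 0.27 (limma adjusted p = 1.21e-04), from 10.26, 9.86 and 10.14 on the vehicle arrays to 12.46, 13.47, 13.42 and 13.42 on the RAPPD arrays. Oncostatin M (Osm), an interleukin-6 family cytokine of myeloid cells, rose by 3.90 ± 0.61 (limma adjusted p = 0.0028) and its receptor Osmr by 1.66 ± 0.26 (limma adjusted p = 0.00269). The other probe of each gene, less bright, gave smaller differences of 1.87 for Osm and 0.66 for Osmr. The kinase Jak2, which these receptors use, rose by 1.78 ± 0.19 (limma adjusted p = 4.72e-04). Stat3 itself rose by 0.84 ± 0.18 (limma adjusted p = 0.0117).

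Interleukin-1 alpha (Il1a) rose by 2.66 ± 0.34 (limma adjusted p = 0.00101), with the floor limiting its size since 1 of 3 vehicle arrays detected it, and its other probe gave 1.63. Interleukin-1 beta (Il1b) rose by 3.35 ± 0.63 (limma adjusted p = 0.0065). The NF-kB inhibitor and target Nfkbia rose by 2.17 ± 0.23 (limma adjusted p = 4.46e-04). Interleukin-6 itself (Il6) was near the detection limit, at 0.66 ± 0.32 and not called (limma adjusted p = 0.174). Tnf lay at 0.25 ± 0.24 (limma adjusted p = 0.479), also not called. Of the C/EBP factors, Cebpb rose by 1.15 ± 0.21 (limma adjusted p = 0.00504) and Cebpa by 1.44 ± 0.37 (limma adjusted p = 0.023), while Cebpd was at 0.04 ± 0.16 and not called (limma adjusted p = 0.87). With chip as a fixed block 4 of the 27 were called, namely Socs3, Jak1, Jak2 and Nfkbia, and Socs3 was then at 3.06. Jak1 is uncertain, since its other probes lay from -1.15 to 0.42 over all arrays, against 0.93 for the brightest.

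**Figure D3:**
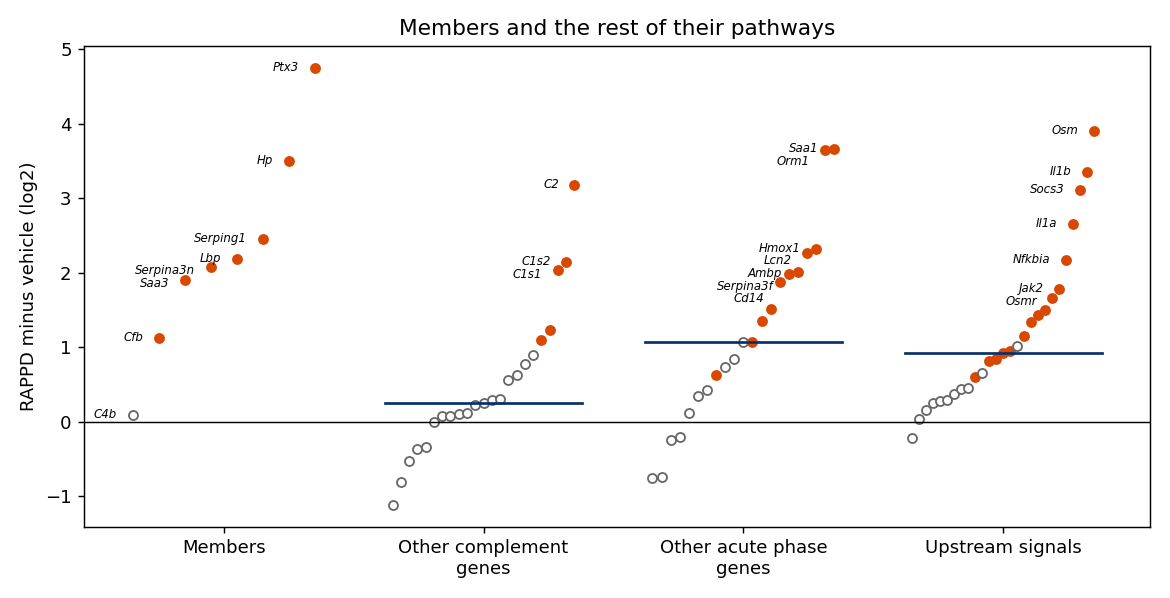
Difference of RAPPD minus vehicle in log2 units (vertical axis) of each gene past the filter in the 4 gene groups, with called genes filled, others open and medians of the 3 wider lists as lines. The members other than C4b lie above 1, and 5 of 23, 11 of 21 and 16 of 27 genes of the other lists are filled. Values of genes below detection in one group, such as Cfb and C1s2, are limited by the floor.

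Markers of other cell types did not all move alike. Their counts, here and in the next paragraph, stand beside 11.0% of all genes called higher and 13.1% lower. The shares with chip as a block are those given above. Neutrophil and red blood cell sums were higher on all RAPPD arrays and luminal epithelial sums lower, while fibroblast and macrophage sums overlapped. Of 9 neutrophil markers past the filter 6 rose and 0 fell (limma, with 7 and 0 at an unadjusted p under 0.05, and 1 higher with chip as a block), and the summed neutrophil marker intensity over 12 genes was 2901 to 11337 on vehicle and 20610 to 63064 on RAPPD arrays. Its highest vehicle array was vehicle 3 and its lowest RAPPD array RAPPD 1, as for Hp, Serpina3n and the summed fibroblast markers below. Saa3 and Serping1 instead had vehicle 3 as their lowest vehicle array. So did Cfb and the brightest Ptx3 probe, whose vehicle levels lay below or near the detection limit. The granule gene Ngp was detected on no vehicle array and so passed through the RAPPD arrays alone, and Mpo and Ltf were below the filter.

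The 4 red blood cell markers, the cargo source for Hp, were all called higher (2 with chip as a block), with sums of 9722 to 20070 on vehicle and 49786 to 117994 on RAPPD arrays. Of 10 fibroblast markers 2 rose (Col1a2 and Pdgfra) and 1 fell (Pdgfrb), with 5 and 1 at an unadjusted p under 0.05 (limma). Pdgfra was borderline (limma adjusted p = 0.0498), with overlapping groups and its other probe at 0.087. The fibroblast sums overlapped, at 19943 to 38622 on vehicle and 26462 to 66896 on RAPPD arrays. Neutrophil and macrophage sums were nearly tied between RAPPD 3 and RAPPD 4, at 63064 and 62869 and at 26608 and 26522. By mean log2 level neutrophil markers were highest on RAPPD 4, at 10.46 against 10.38 on RAPPD 3. Among RAPPD arrays RAPPD 3 had the highest fibroblast sum, as for the members. With chip as a block neither riser was called, and Fap (-1.36) and Lum (-1.45) were called lower (limma adjusted p = 0.0361 and 0.0486). Macrophage sums also overlapped, at 20205 to 34513 on vehicle and 22654 to 26608 on RAPPD arrays, with 1 of 7 markers higher and 1 lower. Lyz2 alone made 84.7% to 91.2% of these sums. Without Lyz2 they were 3081 to 4782 on vehicle and 2001 to 3186 on RAPPD arrays, lower in RAPPD tumours apart from a narrow overlap. With chip as a block Adgre1 was at -1.75. Luminal epithelial sums were 17309 to 28986 on vehicle and 3305 to 10557 on RAPPD arrays, with Krt8 alone making 67.5% to 93.5% of them. Of 4 luminal markers past the filter 0 were called higher and 2 lower (limma), Krt8 at -2.16 ± 0.29 and Krt18 at -2.83 ± 0.48. With chip as a block Krt8 was at -2.03, Krt18 at -1.89 and Cdh1 at -0.0013. Krt19 turned from -1.81 ± 1.21 over all arrays to 1.22 there. The mean log2 level of these markers, in which each counts alike, overlapped between the groups. The part of these cell types in the members' differences was not tested.

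**Figure D4:**
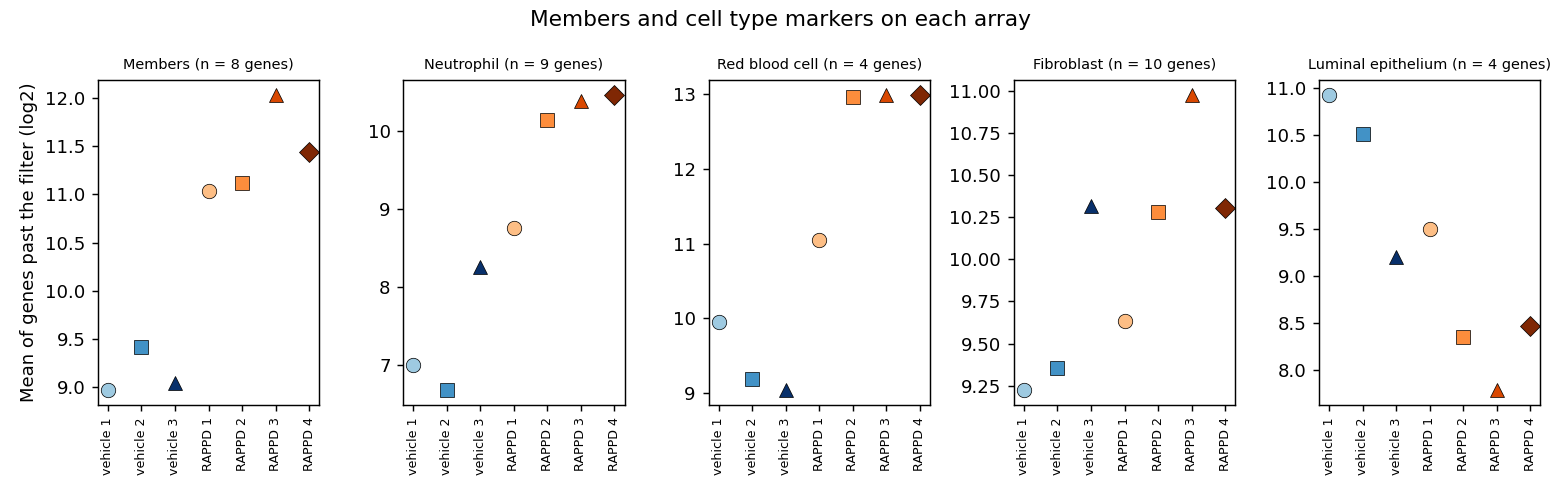
Mean normalised log2 intensity (vertical axes, each with its own range) of the members and of 4 marker lists on each of the 7 arrays. Members, neutrophil and red blood cell markers are higher on all RAPPD arrays than on all vehicle arrays, while fibroblast and luminal epithelial means of the groups overlap.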

How the data were processed

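Biotin-labelled RNA of 7 tumours was hybridised to Illumina mouse bead arrays, 1 array per sample. The deposited table holds background-subtracted intensities on a linear scale, without detection p-values or control probes. Array means are near-equal, and a scaling before deposit was not tested. The submitters' processing notes name BeadStudio and lumi, with no version. A second deposited table holds processed log2-like values whose transform and centring stay unknown (column medians 8.021 to 8.025, rank correlation with the intensities at least 0.99999). It served as an alternative.

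Normexp was applied with a background mean of 0 and an SD from each array's negative intensities (8.41 to 9.35), an offset of 16 was added, and arrays were quantile normalised and taken to log2. A probe was detected above the upper 0.05 tail of that background. The filter kept the 21249 probes that at least 3 arrays detected. Of 45128 probes, 34776 had 1 symbol, 18 several and 10334 none. A gene was represented by its brightest probe.

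RAPPD was compared with vehicle by limma 3.58.1 (R 4.3.3) over 11085 genes, two-sided, with Benjamini-Hochberg adjustment and a threshold of 0.05. For a gene undetected in its lower group the fold is a bound taken from the detection limits. The fit was tested on simulated data. The members and lists were chosen with earlier results of these data known. Named genes were every member, up to 6 called genes per list and direction with non-overlapping groups and the smallest p, liver markers and the 3 nearest profiles. Others were named after their values were seen. Planned protein comparisons were not run, since no protein sequences were used here. Replicate numbers follow the order of the series, and p-values cover only the spread among these samples, which may share a donor tumour. The number of arrays limits precision.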

Additional observations from a re-analysis of the deposited data

Results flagged for a closer look

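Of 37 sets of 4 RAPPD values tested for a sample far from the others, 2 were flagged, and chance flags about 1 in 20. Both concerned RAPPD 1. One probe of Hp (ILMN_2668509) was at 13.36 on RAPPD 1, while RAPPD 2 to 4 lay between 14.25 and 14.36 (a gap of 0.887 of the range, above the critical 0.829). Socs3 was at 12.46 there, with RAPPD 2 to 4 between 13.42 and 13.47 (0.953 of the range).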

How the results depend on the processing

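Of the 8 genes, the 7 called higher kept their direction under every alternative run, and 5 kept their call in all of them. Cfb lost its call with the submitters' processed values (0.14), and Serpina3n with chip as a fixed block (1.44). Cfb and Ptx3 could not be tested among probes detected on all 7 arrays. Under the submitters' values Ptx3 was at 2.02 and Lbp at 1.30, and the cause was not tested. C4b was never called and turned to -0.032 with array weights, and ranged from -0.12 (without RAPPD 3) to 0.41 (without RAPPD 2) when an array was left out, with -0.09 without vehicle 3. Other complement genes called higher numbered 3 with the submitters' values, with no filter and with probes detected on all arrays, 1 with chip as a fixed block, and 3 to 5 when an array was left out. Of the same genes 1 was called lower with array weights (C6), and 0 to 1 when an array was left out (C6 or Cd55). Other acute phase genes called higher numbered 3 with chip as a fixed block, and 1 was called lower with no filter (Fga) and with array weights (Hpx), and 0 to 1 when an array was left out (Hpx). Upstream signals called higher numbered 4 with chip as a fixed block, in alternatives added after seeing the data. No paired analysis was possible because the labels number no replicates. Levels near the detection limit, as of Cfb, limit the size of a difference, and so may brightness for Saa3 and Hp.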
